A study of Mus musculus with 6 samples.

Results

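The genes described here make ribosomes in the nucleolus: 55 of the 1386 genes in the authors' deposited table. They were taken by name, by symbols that start with stems such as Nop, Utp, Polr1, Rrp, Nol, Wdr, Ddx, Exosc, Noc or Heatr, together with single genes such as Ncl, Npm1, Fbl, Dkc1 and Tcof1. Of the 55, 52 belong to the 6 role groups below, and 3 (Ddx39, Ddx11 and Wdr78) share only the name stem. The authors' deposited table lists 54 of them as lower with Akk and 1, Wdr78, as higher. Akk stands for Akkermansia muciniphila, a bacterium that lives in the mucus of the gut. Wild-type mice were kept on normal chow, and RNA was taken from their intestinal epithelial cells. The Akk group received 400000000 bacteria daily by gavage from 8 weeks of age for 7 weeks, and the control group received the carrier PBS over the same time. Each group had 3 libraries. Nothing in the labels ties a library to a mouse of its own. Each p-value thus reflects the spread among these libraries, part of which may be technical.

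A ribosome begins as a long precursor RNA that RNA polymerase I transcribes from ribosomal DNA in the nucleolus. Small nucleolar RNAs, carried in protein complexes called snoRNPs, guide the chemical modification of the precursor, and assembly factors, helicases and the RNA exosome fold and trim it into the RNAs of the small and the large subunit. The pathway is most active in growing and dividing cells, which in the intestinal epithelium lie in the crypts, and the transcription factor Myc is a known activator of many of its genes.

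Before any comparison, 1 library stood apart. PBS replicate 2 had the highest value of all 6 libraries for 54 of the 54 genes listed as lower. This was shared by 1022 of all 1040 genes of the table listed as lower. The 54 genes had a summed FPKM (fragment counts divided by gene length and by library depth) of 169, 1300 and 170 in PBS replicates 1 to 3. In Akk replicates 1 to 3 the sum was 99.5, 122 and 109. PBS replicate 2 was thus 7.66-fold above the mean of the other PBS libraries, while these in turn were 1.54-fold above the Akk mean. Depth did not follow this order: the depth implied by the ratio of count to FPKM was 23457478 fragments in PBS replicate 2 and 25744785 to 29245814 in the other 5 libraries. The table itself holds only genes that the authors had selected on these 6 libraries, with a deposited p of at most 0.0498 and a fold of at least 1.50. The direction of each gene was therefore fixed by that selection, and a test on the same libraries is not independent evidence. A gene that is not listed missed those thresholds or was not measured.

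For 54 of the 54 genes listed as lower, the mean of PBS replicates 1 and 3 was above the Akk mean, with a median ratio of 1.57 and a range of 1.10 to 3.06. PBS replicates 1 and 3 themselves differed by a median of 1.22-fold. The Akk libraries differed among themselves by a median of 1.51-fold, at most 3.86-fold for Rrs1, which binds the 5S ribonucleoprotein on its way into the large subunit. The lowest library was Akk replicate 1 for 30 genes, Akk replicate 3 for 18 and Akk replicate 2 for 6. For 43 of the 55 genes the 3 Akk values lay below the 3 PBS values without overlap. Over the whole table this share was 65%, and over the genes listed as lower it was 86.6%, so the share of the biogenesis genes (43 of the 54 listed as lower) was not above that background.

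**Figure D1:**
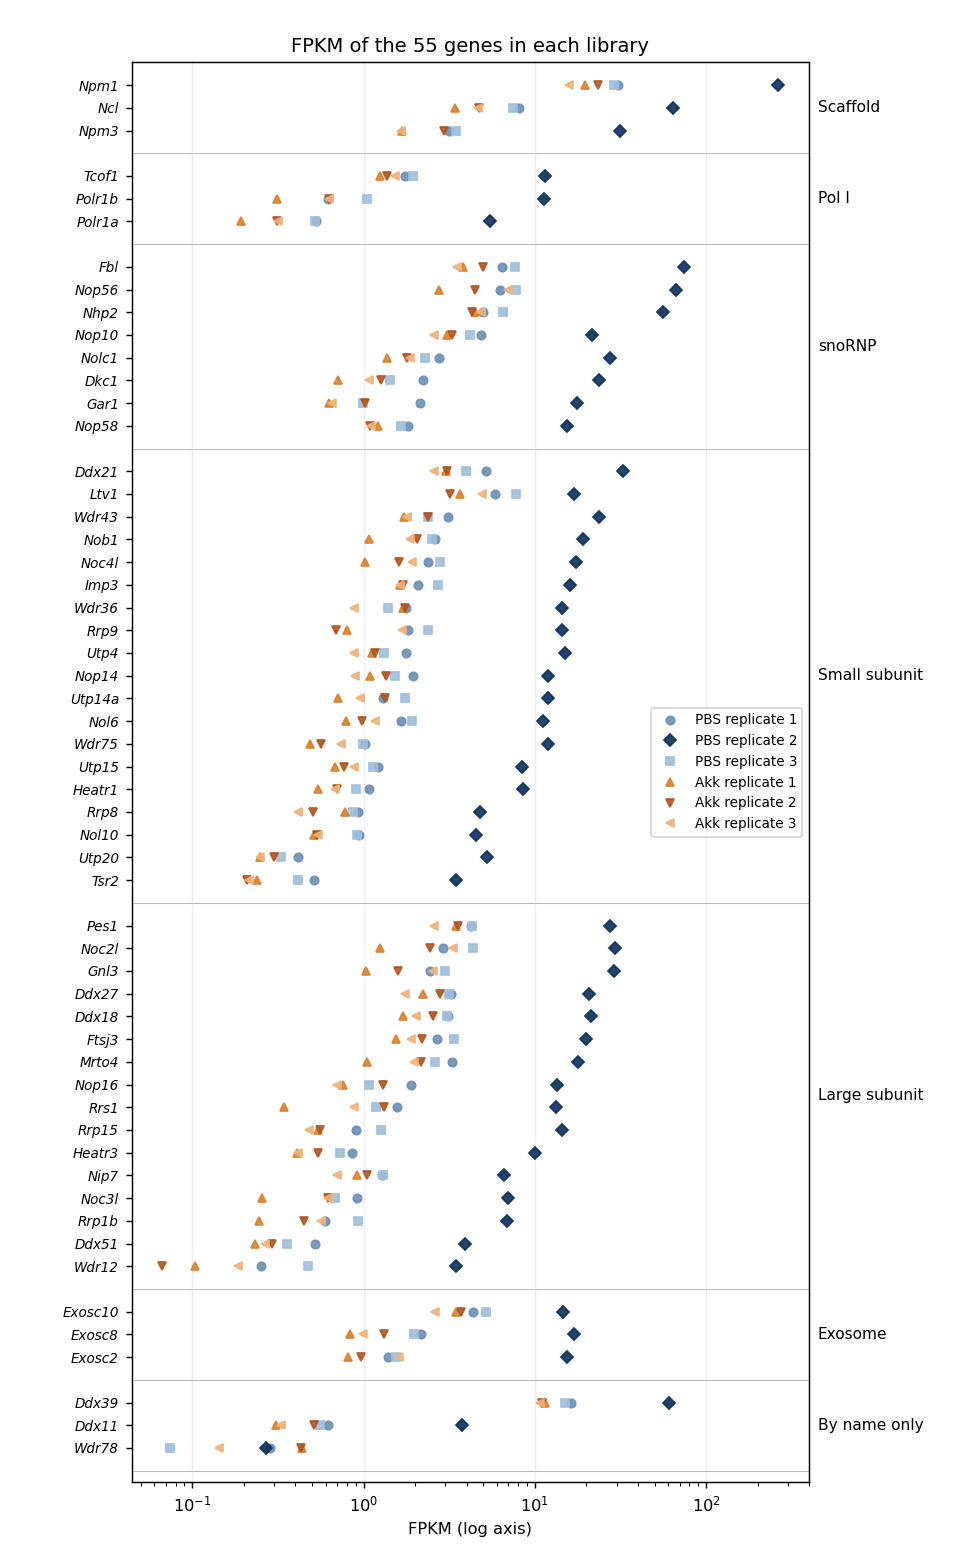
FPKM of each of the 55 genes (rows, grouped by role) in the 6 libraries on a log axis; each symbol is 1 library. PBS replicate 2 (dark diamonds) lies to the right of the other 5 libraries in every row except that of Wdr78, and the other PBS libraries lie close to the Akk libraries.

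Log2 fold changes below are Akk over PBS, fitted to the counts with edgeR, with their standard error (SE). No gene of the 55 had a Benjamini-Hochberg adjusted p under 0.05 in edgeR's quasi-likelihood test on all 6 libraries, and 0% of the table did. Unadjusted, 40 of the 55 genes had p under 0.05, all lower in Akk, beside 54.3% of the table called lower that way and 57.1% in either direction. These shares have unlike bases, as 54 of the 55 genes but 1040 of the 1386 are listed as lower. The genes of the table called lower unadjusted numbered 753, beside those 1040. The smallest adjusted p, 0.0861, was shared by 35 of the 55 genes, and the largest among those listed as lower was 0.12 (Exosc10) by the same edgeR test. The 55 genes had a median log2 fold change of -2.38, which was -0.65 when PBS replicate 2 was left out. Over all 1386 listed genes these medians were -1.85 and -0.66, and over the genes listed as lower -2.19 and -0.78. All 55 genes passed the filter on low counts, and their smallest count in any library was 12. In bulk RNA such as this, fewer cells of a type and less RNA per cell cannot be told apart.

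Of the nucleolar scaffold genes all 3 names were listed, as lower, and Npm1 had the highest mean FPKM of the 55 genes. Npm1 (chr11:33152287-33163206, minus strand) encodes nucleophosmin, a histone chaperone that organises the granular zone of the nucleolus. Its FPKM, listed here and below in the order of replicates 1 to 3, was 30.5, 265 and 29.0 in PBS and 19.7, 23.5 and 15.8 in Akk. The groups did not overlap, and PBS replicate 2 alone lay 8.90-fold above the mean of the other PBS libraries. Its log2 fold change was -2.53 (SE 0.93) with all libraries and -0.58 (SE 0.23, edgeR adjusted p = 0.078) without PBS replicate 2. Ncl (chr1:86344719-86359400, minus strand) encodes nucleolin, an RNA-binding protein of the nucleolus that acts in transcription and processing of the ribosomal RNA precursor. It stood at 8.09, 64.5 and 7.49 FPKM in the PBS libraries and at 3.43, 4.73 and 4.65 in the Akk libraries. Every Akk library was below every PBS library, and the log2 fold change was -2.63 (SE 0.88). Without PBS replicate 2 it was -0.85 (SE 0.21), and this was 1 of the 3 genes of the 55 that passed then (edgeR adjusted p = 0.0433). Npm3, a relative of nucleophosmin, had an FPKM of 3.14, 31.5 and 3.45 in PBS and of 1.67, 2.96 and 1.65 in Akk, again without overlap. Npm1 and Ncl together made up 25.3% of the summed FPKM of the genes listed as lower in PBS replicate 2.

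Of 9 genes named for RNA polymerase I and its factors, 3 were listed, all as lower. Polr1a encodes the largest subunit of the enzyme and had an FPKM of 0.527, 5.44 and 0.520 in PBS and of 0.194, 0.314 and 0.318 in Akk. No Akk value reached a PBS value, with Akk replicate 1 the lowest, and the log2 fold change was -3.03 (SE 1.09) with all libraries and -0.96 (SE 0.28, edgeR adjusted p = 0.0519) without PBS replicate 2. Polr1b, the second largest subunit, stood at 0.624, 11.4 and 1.05 FPKM in PBS and at 0.311, 0.629 and 0.632 in Akk. Akk replicates 2 and 3 were just above PBS replicate 1, so the groups overlapped, and PBS replicate 2 lay 13.6-fold above the other PBS libraries. Tcof1 encodes treacle, which links ribosomal DNA transcription to processing of the precursor. Its FPKM was 1.74, 11.5 and 1.95 in PBS and 1.25, 1.37 and 1.54 in Akk, without overlap but with only a small gap between Akk replicate 3 and PBS replicate 1.

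The proteins of snoRNPs were listed almost in full, 8 of 9 names, all as lower. Fbl, the fibrillarin methyltransferase of box C/D snoRNPs, had an FPKM of 6.42, 74.8 and 7.69 in PBS and of 3.83, 5.01 and 3.53 in Akk. The groups did not overlap, and the log2 fold change was -2.84 (SE 1.03) with all libraries and -0.77 (SE 0.24, edgeR adjusted p = 0.0575) without PBS replicate 2. Nop56 and Nop58 are the paired scaffold proteins of the same particles, and they differed in how the Akk libraries lay. Nop56 stood at 6.27, 66.4 and 7.77 FPKM in PBS and at 2.75, 4.49 and 6.97 in Akk. Akk replicate 3 was above PBS replicate 1, so the groups overlapped. Nop58 stood at 1.83, 15.4 and 1.66 FPKM in PBS and at 1.21, 1.09 and 1.11 in Akk. By FPKM its Akk values were tightly grouped below all PBS values. Its Akk counts, to which the test was fitted, were 309, 393 and 333, with Akk replicate 1 the lowest and not the highest. Without PBS replicate 2 Nop58 passed the test with a log2 fold change of -0.77 (SE 0.21, edgeR adjusted p = 0.0496).

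Box H/ACA snoRNPs, which turn uridines into pseudouridines, have 4 core proteins, and all 4 were listed. Dkc1, the pseudouridine synthase dyskerin, had an FPKM of 2.23, 23.7 and 1.44 in PBS and of 0.712, 1.27 and 1.07 in Akk. The groups did not overlap, and its fold of PBS replicate 2 over the other PBS libraries, 12.9, was among the 5 largest of the 55 genes. Nhp2 stood at 4.98, 55.9 and 6.52 FPKM in PBS and at 4.50, 4.29 and 4.85 in Akk, so that Akk replicate 3 came within a narrow margin of PBS replicate 1. Its log2 fold change without PBS replicate 2 was -0.34 (SE 0.22), the one nearest to 0 among the 54 genes listed as lower. Nop10, the smallest core protein, stood at 4.85, 21.7 and 4.18 FPKM in PBS and at 3.06, 3.26 and 2.58 in Akk. It did not overlap, and its 4.79-fold excess in PBS replicate 2 was among the 5 smallest. The fourth core protein, Gar1, showed overlap because Akk replicate 2 (1.03 FPKM) was just above PBS replicate 3 (0.994 FPKM). By count divided by depth Gar1 did not overlap, which made 44 of the 55 genes without overlap on that scale. Nolc1, which shuttles snoRNPs within the nucleus, completed the group, and its Akk and PBS values did not overlap.

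For the small subunit, 19 of 43 names were listed, all as lower, and for 16 of the 19 the groups did not overlap, beside 86.6% of all genes listed as lower. Ddx21, an RNA helicase that acts in both transcription and processing of ribosomal RNA, had the highest mean level. Its FPKM was 5.17, 32.7 and 3.98 in PBS and 3.02, 3.08 and 2.58 in Akk. All Akk values lay below PBS replicate 3, and the log2 fold change was -2.27 (SE 0.86) with all libraries and -0.66 (SE 0.21, edgeR adjusted p = 0.0597) without PBS replicate 2. Ltv1, an export and late maturation factor of the small subunit, had the smallest excess in PBS replicate 2. It stood at 5.83, 16.9 and 7.81 FPKM in PBS and at 3.68, 3.19 and 4.89 in Akk. Its PBS replicate 2 was 2.48-fold above the other PBS libraries, the least of the 54 genes listed as lower, and its log2 fold change of -1.37 (SE 0.65) became -0.80 (SE 0.26, edgeR adjusted p = 0.0603) without that library.

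Utp20, a large scaffold protein of the small subunit precursor, was at the other end. Its FPKM was 0.413, 5.25 and 0.328 in PBS and 0.250, 0.300 and 0.249 in Akk. PBS replicate 2 lay 14.2-fold above the other PBS libraries, the largest such fold of the 55 genes, and PBS replicate 3 was only just above Akk replicate 2. The log2 fold change was -2.89 (SE 1.16) with all libraries and -0.46 (SE 0.25, edgeR adjusted p = 0.146) without PBS replicate 2. Wdr43, a component of the early U3-containing precursor, stood at 3.12, 23.6 and 2.38 FPKM in PBS and at 1.73, 2.38 and 1.80 in Akk, so Akk replicate 2 met PBS replicate 3. Nob1, the nuclease that makes the last cut of the small subunit RNA, stood at 2.63, 19.1 and 2.51 FPKM in PBS and at 1.07, 2.06 and 1.87 in Akk, without overlap. The other 14 genes of this group were Noc4l, Imp3, Wdr36, Rrp9, Utp4, Nop14, Utp14a, Nol6, Wdr75, Utp15, Heatr1, Rrp8, Nol10 and Tsr2. Of these, Wdr36 and Utp14a overlapped, and no gene of the small subunit group passed the edgeR test with or without PBS replicate 2.

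For the large subunit, 16 of 35 names were listed, all as lower. Of these 16, 12 showed no overlap, a smaller share than the 86.6% of all genes listed as lower. Pes1 and Wdr12 belong, with Bop1, to a complex needed to mature the large subunit RNA. Pes1 had an FPKM of 4.25, 27.3 and 4.28 in PBS and of 3.45, 3.54 and 2.57 in Akk, and its groups did not overlap. Wdr12 had a far lower level, at 0.251, 3.46 and 0.477 FPKM in PBS and at 0.104, 0.0670 and 0.185 in Akk. All its Akk values were below all PBS values, and its log2 fold change without PBS replicate 2, -1.33 (SE 0.36, edgeR adjusted p = 0.0471), was the furthest below 0 of the 55 genes. Pes1, by comparison, had -0.42 (SE 0.22, edgeR adjusted p = 0.132); the difference between these genes was not tested.

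Noc2l, which travels with large subunit precursors from the nucleolus to the nucleoplasm, stood at 2.92, 29.4 and 4.38 FPKM in PBS and at 1.24, 2.45 and 3.34 in Akk. Akk replicate 3 lay above PBS replicate 1, so the groups overlapped. Gnl3, or nucleostemin, is a GTP-binding nucleolar protein of dividing and stem cells. It stood at 2.43, 29.1 and 2.99 FPKM in PBS and at 1.04, 1.60 and 2.54 in Akk, again with Akk replicate 3 above PBS replicate 1. Ddx27, a helicase that acts on the large subunit RNA, had an FPKM of 3.23, 20.8 and 3.14 in PBS and of 2.22, 2.78 and 1.76 in Akk, without overlap.

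Rrp15, another large subunit factor, had the log2 fold change furthest below 0 with all libraries, -3.36 (SE 1.15). Its FPKM was 0.909, 14.4 and 1.27 in PBS and 0.545, 0.557 and 0.479 in Akk. The 3 Akk values were nearly equal and below all PBS values, and the value without PBS replicate 2 was -1.03 (SE 0.34, edgeR adjusted p = 0.0607). Heatr3, which takes part in incorporating the 5S ribonucleoprotein, stood at 0.860, 10.1 and 0.728 FPKM in PBS and at 0.408, 0.545 and 0.417 in Akk, without overlap. The other 9 genes of this group were Ddx18, Ftsj3, Mrto4, Nop16, Rrs1, Nip7, Noc3l, Rrp1b and Ddx51. Of these, Nop16 and Rrs1 overlapped between the groups, and Rrs1 was above PBS replicate 3 in Akk replicate 2 only.

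The RNA exosome trims precursors from their 3′ ends, and 3 of 10 names were listed, all as lower. Exosc10 is its nuclear exonuclease and had an FPKM of 4.38, 14.6 and 5.16 in PBS and of 3.47, 3.73 and 2.62 in Akk. The groups did not overlap, and PBS replicate 2 was only 3.05-fold above the other PBS libraries. Exosc8, a core ring subunit, stood at 2.18, 17.0 and 1.98 FPKM in PBS and at 0.833, 1.31 and 0.990 in Akk. It showed no overlap, and its log2 fold change was -2.75 (SE 1.01) with all libraries and -1.004 (SE 0.32, edgeR adjusted p = 0.0585) without PBS replicate 2. Exosc2, an RNA-binding cap subunit, stood at 1.39, 15.4 and 1.55 FPKM in PBS and at 0.817, 0.970 and 1.61 in Akk. Here Akk replicate 3 was above PBS replicates 1 and 3, so the groups overlapped.

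The 3 genes that share only a name stem work outside ribosome assembly. Ddx39, an RNA helicase of mRNA export, had an FPKM of 16.2, 60.8 and 15.0 in PBS and of 11.5, 11.1 and 10.8 in Akk. Its groups did not overlap, and PBS replicate 2 was 3.89-fold above the other PBS libraries, among the 5 smallest such folds. Ddx11, a DNA helicase of sister chromatid cohesion, stood at 0.618, 3.78 and 0.559 FPKM in PBS and at 0.307, 0.516 and 0.332 in Akk, also without overlap. Wdr78, a component of the axonemal dynein of cilia, was the only gene listed as higher in Akk. It stood at 0.285, 0.268 and 0.0739 FPKM in PBS and at 0.437, 0.432 and 0.143 in Akk. The groups overlapped because Akk replicate 3 was below PBS replicates 1 and 2, and by FPKM PBS replicate 2 lay between the other PBS libraries. Its read counts, to which the fold change was fitted, ran differently, at 19, 37 and 12 in PBS and 70, 70 and 17 in Akk, with PBS replicate 2 the highest PBS library. With 0.1 added to each group mean, the log2 ratio of its mean FPKM was 0.50. Computed in this way, Wdr78 was the only one of the 55 genes whose ratio and fitted value lay more than 0.5 apart. The added 0.1 is large beside its group means (PBS 0.209, Akk 0.338) and shrinks the ratio. The gap of more than 0.5 thus depends on that addition. The fitted log2 fold change of Wdr78 was 1.03 (SE 0.65, edgeR adjusted p = 0.178), and 1.67 (SE 0.67, edgeR adjusted p = 0.0832) without PBS replicate 2.

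The excess of PBS replicate 2 over the mean of the other PBS libraries was above 5-fold for 49 of the 54 genes listed as lower, with a median of 8.43. The median over all genes listed as lower was 5.77, and over those outside the 54 it was 5.62, so both medians were also above 5-fold. By role the median was 10.4 for RNA polymerase I, 10.2 for snoRNPs, 8.90 for the scaffold genes, 8.84 for the large subunit, 8.19 for the exosome and 7.16 for the small subunit. The ratio of the mean of PBS replicates 1 and 3 to the Akk mean was in the other order: its median was 1.57 for the 54 genes and 1.75 for the other genes listed as lower. The difference between these sets was not tested.

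**Figure D2:**
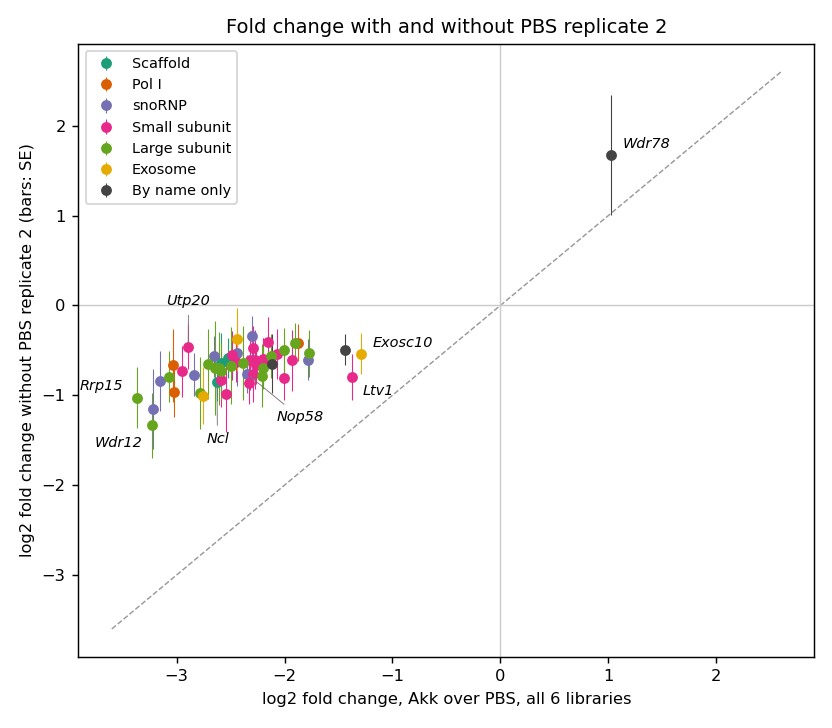
Fitted log2 fold change of each of the 55 genes with all 6 libraries (horizontal) and without PBS replicate 2 (vertical, bars are the SE), coloured by role; the dashed line marks equal values. The 54 genes listed as lower lie between -3.36 and -1.29 horizontally but between -1.33 and -0.34 vertically, and Wdr78 alone lies above 0.

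How many genes passed the edgeR test depended on which library was left out. Without PBS replicate 2, 3 of the 55 genes passed (Ncl, Nop58 and Wdr12), beside 17.7% of the table called lower and 19.5% called in either direction. Of the 1040 genes listed as lower, 246 passed then. All 54 of the biogenesis genes listed as lower still had a negative log2 fold change then, beside 1036 of all 1040 listed as lower. The same 43 genes showed no overlap, beside 65.2% of the table and 86.8% of the genes listed as lower. Without PBS replicate 1, 47 of the 55 passed (52.2% of the table called lower, 53% in either direction). Without PBS replicate 3, 46 passed (50.9% of the table called lower, 52.8% in either direction). The genes called lower numbered 723 and 705 in these 2 settings, beside 1040 listed as lower. With any Akk library left out, none of the 55 passed, as with all 6. The biological coefficient of variation that edgeR fitted over the whole table was 0.71 with all 6 libraries and 0.29 when PBS replicate 2 was left out. DESeq2 on all libraries called 32 of the 55 genes and gave no adjusted p for 21 of the 55. It called 51.4% of the table lower, 712 genes beside 1040 listed as lower, and 56.7% in either direction. Limma-voom called none of the 55 and 0.144% of the table, and edgeR with the replicate number as a block called none of the 55 and 0.433% of the table.

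**Figure D3:**
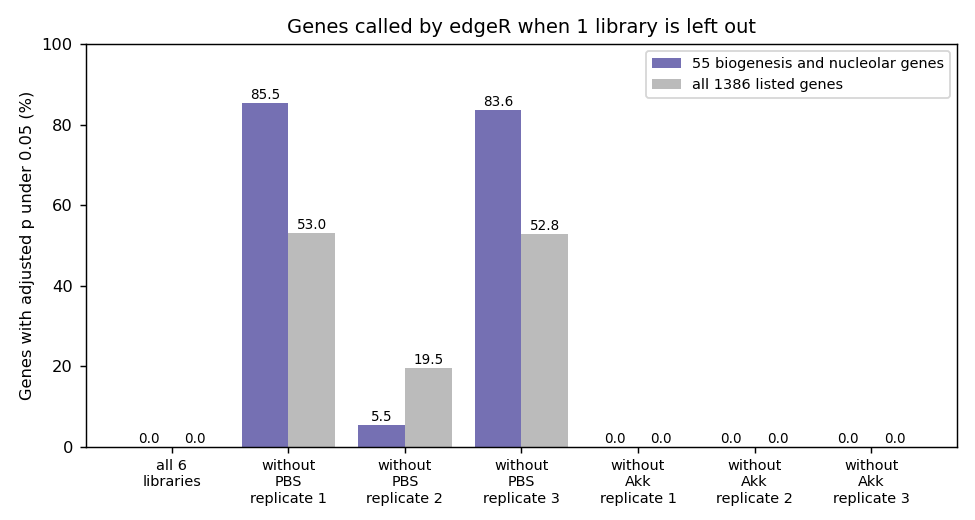
Percent of the 55 biogenesis and nucleolar genes and of all 1386 listed genes with an edgeR adjusted p under 0.05, with all 6 libraries and with each left out in turn. Calls appear where any PBS library is left out, and those of the 55 genes are fewest, 3, without PBS replicate 2. Of the 55 genes 54 are listed as lower, and of the 1386 genes 1040 are.

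The size of the difference depended on the scaling. With factors computed from the listed genes alone, the median of the whole table went from -1.85 to -0.15 (RLE) or -0.21 (TMM), and that of the 55 genes to -0.38 or -0.46. The genes listed as lower, 54 of the 55 but 1040 of the 1386, had medians of -0.34 (RLE) and -0.41 (TMM). With RLE factors 7 of the 55 were above 0 (Wdr78, Exosc10, Tcof1, Ddx39, Pes1, Nip7 and Ltv1), and with TMM factors 4 were (Wdr78, Exosc10, Ddx39 and Ltv1). In the authors' deposited table the log2 fold changes of the genes listed as lower run from -1.58 to -0.67, with a median of -1.15. Each of these 54 is nearer to 0 than the edgeR value for all libraries. The authors' deposited table gives p-values from 0.00187 (Wdr12) to 0.0482 (Exosc10) for the 55 genes, and the test behind them is not given in the sources used here.

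Other genes of the pathway, which the naming rule did not take, were counted from lists of 83 further names. Of these, 20 were listed, all as lower, and all were highest in PBS replicate 2, as were 1022 of all 1040 genes listed as lower. None of 11 further RNA polymerase I names was listed, against 8 of 29 in the small subunit list and 12 of 43 in the large subunit list. SnoRNP and exosome genes had no list of their own here. The small subunit list held snoRNP assembly factors such as Ruvbl2, and the large subunit list held Dis3 and Mtrex, which act with the exosome. The median excess of the 20 genes in PBS replicate 2 was 8.20-fold. Of the 20, 13 showed no overlap, a smaller share than the 86.6% of all genes listed as lower. Pa2g4, a growth-regulated factor bound to ribosome precursors, had an FPKM of 12.8, 73.2 and 13.4 in PBS and of 8.82, 9.39 and 7.85 in Akk, without overlap. Nsa2, a large subunit factor, stood at 15.0, 48.2 and 15.1 FPKM in PBS and at 12.2, 9.51 and 10.2 in Akk. Fcf1, a small subunit factor, stood at 11.8, 32.4 and 13.2 FPKM in PBS and at 9.25, 7.91 and 9.06 in Akk. Nsa2 and Fcf1 had no overlap and a smaller excess in PBS replicate 2, 3.20-fold and 2.58-fold, and both turned positive with RLE (0.26 and 0.32) and TMM factors (0.21 and 0.27). Ruvbl2, a helicase-like ATPase that helps assemble snoRNPs, stood at 5.08, 32.3 and 5.22 FPKM in PBS and at 2.16, 3.35 and 2.56 in Akk. It alone of the 20 passed the test without PBS replicate 2, with a log2 fold change of -0.93 (SE 0.25, edgeR adjusted p = 0.0462). Ruvbl1, the partner of Ruvbl2, stood at 2.31, 17.5 and 1.21 FPKM in PBS and at 1.03, 0.959 and 1.15 in Akk, and Akk replicate 3 came just below PBS replicate 3. Aatf stood at 1.63, 16.7 and 2.59 FPKM in PBS and at 1.16, 0.936 and 0.938 in Akk, without overlap. Rsl1d1 stood at 5.09, 43.4 and 5.20 FPKM in PBS and at 3.49, 4.81 and 3.56 in Akk, also without overlap. Mybbp1a overlapped, at 3.63, 36.6 and 5.17 FPKM in PBS and at 2.42, 3.68 and 3.82 in Akk. Their log2 fold changes with all libraries were -2.73 (SE 1.08), -2.77 (SE 1.01), -2.18 (SE 0.94) and -2.19 (SE 0.91) in that order. Leaving out PBS replicate 2 gave -0.74 (SE 0.34), -1.05 (SE 0.30), -0.38 (SE 0.23) and -0.41 (SE 0.28), and none of these passed (edgeR adjusted p = 0.105, 0.0504, 0.164 and 0.209).

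Of 8 names of the Myc family and its partners, Myc and Mycl were listed, both as lower. Myc had an FPKM of 2.21, 31.4 and 2.10 in PBS and of 0.530, 0.779 and 1.44 in Akk. The groups did not overlap, PBS replicate 2 was 14.6-fold above the other PBS libraries, and the log2 fold change was -3.69 (SE 1.25) with all libraries and -1.17 (SE 0.42, edgeR adjusted p = 0.0694) without that library. Mycl overlapped, at 0.606, 5.13 and 0.536 FPKM in PBS and at 0.755, 0.265 and 0.384 in Akk.

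Markers of crypt cells were highest in the same library. Of 18 proliferation genes 17 were listed, all as lower. Their summed FPKM was 51.4, 493 and 42.5 in PBS and 24.0, 28.0 and 34.0 in Akk. For 5 of 10 crypt stem cell markers the sums were 13.8, 627 and 14.7 in PBS and 7.37, 10.7 and 7.41 in Akk. For 10 of 12 Paneth cell markers they were 215, 8745 and 241 in PBS and 168, 176 and 196 in Akk. The median excess in PBS replicate 2 was 11.1-fold for proliferation, 20.3-fold for stem cell and 32.1-fold for Paneth cell markers, against 8.43-fold for the biogenesis genes. Ada and Apoa4, the 2 of 12 absorptive enterocyte markers that were listed, went the other way. Their summed FPKM was 1851, 490 and 3241 in PBS and 4628, 5383 and 4152 in Akk. Apoa4 did not overlap between the groups, but Ada did, with Akk replicate 1 (101 FPKM) below PBS replicate 3 (140 FPKM). Of 8 goblet cell markers 2 were listed, Muc13 and Zg16, both as higher. Their summed FPKM was 1510, 1246 and 2062 in PBS and 2996, 2829 and 2094 in Akk, but each gene on its own overlapped between the groups. Of 8 enteroendocrine markers 3 were listed, all without overlap, Gip and Sst as higher and Gcg as lower. Gcg was 2.11-fold higher in PBS replicate 2 than in the other PBS libraries. Without PBS replicate 2 its log2 fold change was -1.01 (SE 0.26, edgeR adjusted p = 0.0442). No marker of tuft, immune or stromal cells was listed, and the table cannot show the level of genes it does not list. The part of the cell makeup of the libraries in the values of the biogenesis genes was not tested.

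**Figure D4:**
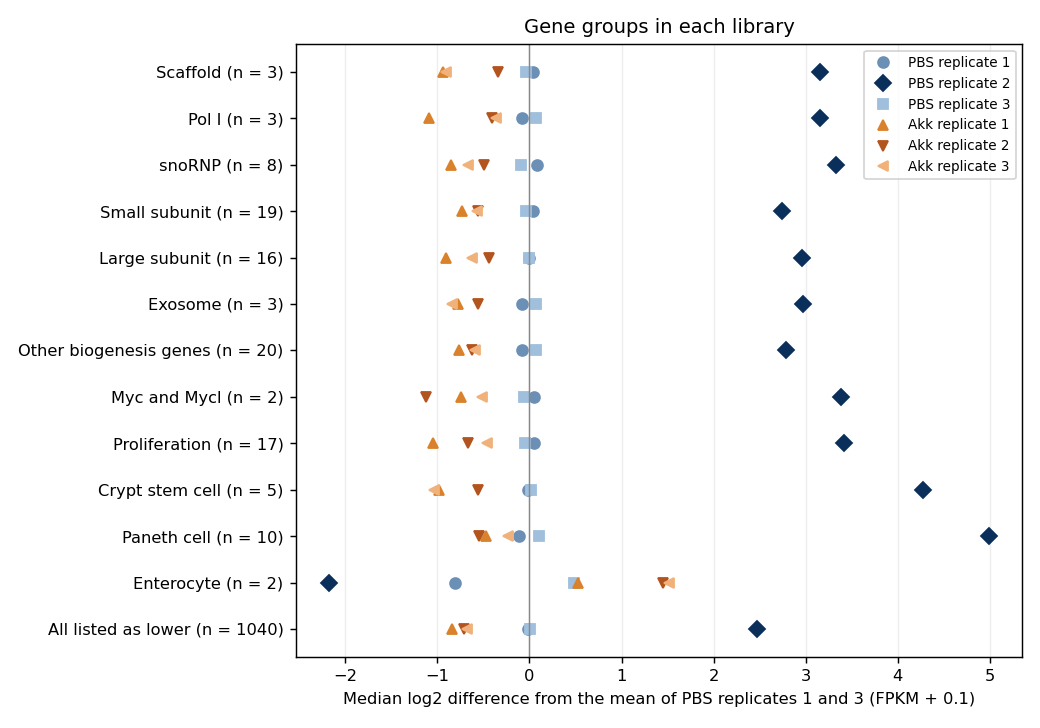
Median over the listed genes of each group of log2(FPKM + 0.1), as the difference from the mean FPKM of PBS replicates 1 and 3, in the 6 libraries; n is the number of listed genes. PBS replicate 2 is far to the right for the biogenesis groups and further right for stem and Paneth cell markers, and on the left for the 2 enterocyte markers.

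Promoter sequences, from 250 bases before to 50 after the start, were found for 46 of the 55 genes in RefSeq (GRCm38.p6) and searched for 3 motifs on both strands. They are shown because the genes were listed together and Myc, which binds the E-box CACGTG, was listed with them. The E-box, which reads the same on both strands, was in 6 of the 46 promoters (13.0%), in 13.4% of 756 promoters of other genes listed as lower and in 8.09% of all 27025 genes. The 6 stretches follow, 5′ to 3′ on the gene's strand, with the E-box in capitals.
Ltv1 (chr10:13193095-13193118, minus strand): ctgtggaccCACGTGtggagctgc
Pes1 (chr11:3963968-3963991, plus strand): taggcagggCACGTGcgggaggaa
Tsr2 (chrX:151096514-151096537, minus strand): cctgggagcCACGTGatctaaacg
Utp20 (chr10:88826765-88826788, minus strand): ggcactaactaCACGTGaggaaaa
Utp4 (chr8:106893646-106893669, plus strand): gcaagcgcgCACGTGgggccgggg
Wdr43 (chr17:71616223-71616246, plus strand): ccgggcgaaCACGTGgctgccgcg
In all 6 the E-box began after the start of the gene, from 3 bases (Pes1) to 38 bases (Utp20) into it. An E-box after the start was found in 18 of the 101 other promoters with an E-box among genes listed as lower (17.8%) and in 15.9% of the 2187 over all genes; this position was looked at after the sequences had been seen. The 6 genes include Ltv1, with the least excess in PBS replicate 2 among those listed as lower, and Utp20, with the most.

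The ETS-type motif CCGGAAG, or CTTCCGG on the other strand, was in 13 of the 46 promoters (28.3%), in 18.1% of those of other genes listed as lower and in 9.93% of all genes. The GC box GGGCGG, or CCGCCC, was in 34 (73.9%), 69.2% and 38.2%. It lay before or across the start in exosome, large and small subunit genes too (Exosc10, Ddx27, Noc2l, Nip7, Utp4, Ltv1 and Nol10) for the ETS-type motif. The 4 ETS-type stretches before the start that follow are examples, with the motif in capitals. They belong to snoRNP genes and to Heatr1, an early factor of the small subunit.
Nolc1 (chr19:46075825-46075848, plus strand): gtgtgggaCCGGAAGcaacttcta
Gar1 (chr3:129831424-129831447, minus strand): ccgccacaCTTCCGGaaacgtcgc
Nhp2 (chr11:51619742-51619765, plus strand): ttgaaaacCCGGAAGtgatgtcgg
Heatr1 (chr13:12395351-12395374, plus strand): gtgagaagCCGGAAGttcctatga
A match is a run of letters and not a measured binding site. The excess of GC boxes over all genes was largely shared with the other genes listed as lower (73.9% and 69.2%). That of the ETS-type motif was shared in part, with 28.3% of the 46 promoters and 18.1% of those of the other genes. The difference between these sets was not tested.

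A single pair of the 55 genes shares a promoter region. Noc4l, a small subunit factor, and Ddx51, a helicase of the large subunit, point away from each other on chromosome 5 with 34 bases between their starts. The stretch between the genes carries a GC box, in capitals.
Noc4l and Ddx51 (chr5:110653418-110653450, plus strand): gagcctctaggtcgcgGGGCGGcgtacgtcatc
Noc4l had an FPKM of 2.38, 17.3 and 2.81 in PBS and of 1.02, 1.62 and 1.93 in Akk. Ddx51 had an FPKM of 0.520, 3.93 and 0.359 in PBS and of 0.232, 0.292 and 0.267 in Akk. Neither overlapped, and PBS replicate 2 was 6.68-fold and 8.95-fold above the other PBS libraries. Of the other 9 genes with a divergent neighbour within 1000 bases, none had a neighbour that was listed.

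Some of the 55 genes also hold genes for the guide RNAs of the machinery. Small nucleolar RNA genes lie inside Ncl, Nop56, Nop58, Dkc1, Gnl3 and Wdr43 in the GENCODE M21 annotation, 6 of 55 (10.9%), against 4.98% of the other listed protein-coding genes and 1.27% of 21951 protein-coding genes. The levels of these small RNAs were not analysed here. The annotation in the authors' deposited table places 19 of the 55 genes in the KEGG pathway for ribosome biogenesis and 25 in the GO term nucleolus, against 27 and 85 in the whole table. Processed pseudogenes or other copies at 95% identity or more over at least 500 bases exist elsewhere in the annotation for 9 of the 55 genes, Npm1, Fbl, Nop56, Pes1 and Wdr12 among them. Their values are uncertain where the counting split reads between copies. An exon on the opposite strand overlaps 23 of the genes, and covers more than 10% of the exons of Ddx39, Tsr2, Exosc2, Utp14a and Noc2l. In 6 genes (Wdr78, Wdr12, Nop58, Wdr36, Rrp1b and Tsr2) the quotient of count and FPKM, set against library depth, varied by more than 1.2-fold between libraries, so their FPKM and their fitted fold changes do not rest on the same values. For Wdr12 the counts were 94, 763 and 95 in PBS and 38, 27 and 50 in Akk. For Nop58 they were 577, 3502 and 564 in PBS and 309, 393 and 333 in Akk. By count divided by depth neither gene overlapped between the groups. The strand setting is not given in the sources used here, so reads of these genes and their partners may be mixed.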

How the data were processed

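Per the labels' protocols, total RNA was made into an Illumina mRNA library, and the build named is mm10, per the submitters' processing notes. The aligner, the counting program, the annotation, the strand setting and the statistics behind the table are, here, not given in the sources used. Per the file headers, the authors deposited whole-number read counts and FPKM for 6 libraries, and, per gene, a log2 fold change and a p-value; whether the p-value is adjusted is not stated. Left out were 2 lines of annotation text, and 0 per-sample columns had no sample.

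Depth was taken from the quotient of count and FPKM, as its median over the 560 genes with 200 or more counts in each library, with the absolute size from the exon lengths of 548; single genes depart from that median. Counts were tested with edgeR 4.0.16 in R 4.3.3 (quasi-likelihood F test, filterByExpr, the recovered depth as library size, no replicate term, Benjamini-Hochberg over 1386 genes, threshold 0.05). Alternatives were RLE, TMM and upper-quartile factors, 2 other count filters, a replicate block, DESeq2 1.42.0, limma-voom (limma 3.58.1) and each library left out in turn. The scripts were tested on simulated data. Medians by library used log2(FPKM + 0.1), and log2 ratios of mean FPKM had 0.1 added to each group mean. Coordinates are from GENCODE M21 (GRCm38); copies were sought with minimap2 2.31.

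The genes and lists were chosen with earlier results of these data known. Described in every library are, per role group, the 4 genes with the highest mean FPKM, any gene listed as higher, and the 5 with the largest and the 5 with the smallest excess in PBS replicate 2; of the other pathway genes, the 4 highest per list. Nop58, Wdr12, Gar1, Rrs1, Noc4l, Ddx51, Myc and Mycl were named for a result or position of theirs.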

Additional observations from a re-analysis of the deposited data

How the results depend on the processing

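The count of genes without overlap kept its value within 1.5 times under every alternative run for it. The count of the 55 genes past the edgeR threshold, 0 with all libraries, was 0 with RLE, TMM and upper-quartile factors, both other filters (which removed no gene), the replicate block and limma-voom, 32 with DESeq2, and 0 to 47 with 1 library left out (47, 3 and 46 without PBS replicates 1, 2 and 3). Over all listed genes it was 6 with the replicate block, 786 with DESeq2, 2 with limma-voom and 0 to 734 with 1 library left out. The median log2 fold change of the 55, -2.38, was -0.38 with RLE, -0.46 with TMM, -0.90 with upper-quartile factors and -2.85 to -0.65 with 1 library left out. Among the genes described in every library by the naming rule, signs turned for Ddx39 (0.20 with RLE, 0.14 with TMM), Exosc10 (0.24, 0.19), Ltv1 (0.0471, 0.00545), Pes1 (0.0101 with RLE) and Tcof1 (0.019 with RLE), and outside them for Nip7 (0.0205 with RLE); the cause was not tested. In the labels, same-numbered libraries share only a number. Their deviations from the group mean correlated at 0.24, -0.06 and -0.30 for replicates 1 to 3. Differently numbered libraries correlated at -0.30 to 0.30, so with 3 libraries per group this cannot settle whether they were paired. Under the replicate block the median was -1.62. The smallest count of the 55 genes was 12, so the values of the lowest genes carry counting error on top of the spread between libraries.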

Other observations

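In the authors' deposited table, 8 genes of the KEGG pathway for ribosome biogenesis fall outside the naming rule (Ak6, Fcf1, Mdn1, Mphosph10, Nat10, Pop1, Rexo2 and Snu13). All 27 genes of that pathway in the table, these 8 included, are listed as lower in Akk. So are all 30 of the GO term rRNA processing and 80 of the 85 of the GO term nucleolus. Of the whole table, 1040 of 1386 genes are listed as lower, and the authors' selection on these libraries fixed each direction.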
